A study of Mus musculus with 6 samples.

Results

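The 56 genes described here encode the machinery that copies DNA and the enzymes that supply its nucleotides. They were taken by gene symbol from a list of named genes covering origin licensing, the replicative helicase, polymerases, the sliding clamp, nucleotide synthesis and the E2F factors of S phase. All 56 were found among the 47643 genes of the deposited count table. All 56 also passed the filter on low counts that left 15111 genes for testing, and the lowest count of any of them in a library was 33. Poly(A) RNA came from mast cells sorted from mouse skin, in 3 embryonic libraries at E16.5 (embryonic day) and 3 adult libraries. Both groups carried Cdh5CreERT2, a tamoxifen-inducible Cre recombinase driven by the endothelial gene Cdh5, and both had been pulsed with 4-hydroxytamoxifen at E7.5. The submitters describe the embryonic cells as descending from hemogenic endothelium of the yolk sac and the adult cells as definitive, and the labels leave out whether cells were sorted by the Cre label. Embryonic cells were gated as CD45+ F4/80- CD64- ckit+ ST2+. The adult gate was CD45+ F4/80- CD64- ckit+ Fcer1+, and the adult epidermis was taken off with an extra Dispase step. Age, described origin, gate and this step change together and cannot be told apart. Whether the replicates are separate animals is not stated, so the p-values here reflect library-to-library spread alone, and that spread may be technical.

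Replication origins are licensed before S phase, when the origin recognition complex, Cdc6 and Cdt1 load the MCM helicase onto DNA. In S phase Cdc45 and the GINS complex switch the helicase on, primase and the polymerases copy the strands, and clamp loaders place the Pcna ring that holds the polymerases on DNA. Ribonucleotide reductase and thymidylate synthase make the precursors, and E2F factors, held in check by RB proteins, drive transcription of many of these genes in cells that enter the cycle. Mast cells of adult skin are long-lived and divide little under resting conditions.

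Library depth ran from 34122162 to 49813523 counts in genes, and the 56 genes held 0.316% to 0.440% of the counts in embryonic and 0.155% to 0.180% in adult libraries. Mast cell markers were present in all libraries but differed between groups. The list of 12 summed to 126165 to 137938 CPM (counts scaled to a common library size and composition) in the embryo and 63191 to 66141 CPM in the adult, with 7 markers higher in embryonic and 3 in adult libraries. The log2 fold changes of the 12, embryonic minus adult, ran from -7.02 to 1.59. Kit, used in both gates, lay between 4680 and 5692 CPM. Summed markers of other cells differed too. A list of 10 erythroid markers, globin genes among them, summed to 161 to 352 CPM in the embryo and 12.8 to 19.1 CPM in the adult, and all 7 of them that were tested were higher in embryonic libraries. A list of 8 dendritic or Langerhans cell markers summed to 36.2 to 59.4 CPM in the embryo and 708 to 1955 CPM in the adult, and 6 of the 8 were higher in adult libraries. The 8 macrophage markers summed to 6.03 to 13.0 and 79.4 to 186 CPM, and the 7 keratinocyte markers to 57.7 to 541 and 31.8 to 55.3 CPM. Fibroblast markers summed to 553 to 686 and 91.6 to 505 CPM and basophil markers to 719 to 900 and 390 to 487 CPM. Endothelial markers summed to 25.4 to 32.3 and 4.94 to 11.3 CPM, melanocyte markers to 32.8 to 52.0 and 3.58 to 13.2 CPM, and progenitor markers to 211 to 232 and 268 to 303 CPM. Lymphocyte markers summed to 16.1 to 21.8 and 82.9 to 99.3 CPM with Ncr1 at 0, and neutrophil markers to at most 0.683 CPM with Elane at 0. Of the fibroblast markers, 0 were higher in embryonic and 1 in adult libraries. These counts were 3 and 1 for endothelial, 1 and 2 for progenitor and 2 and 2 for lymphocyte markers. They were 0 and 6 for macrophage, 2 and 0 for keratinocyte, 2 and 0 for basophil and 3 and 0 for melanocyte markers. Over all tested genes the shares were 31.2% and 31.7%. The part that such cells play in the results below was not tested. Embryonic replicate 3 stood apart, with the highest erythroid and keratinocyte sums and the lowest level of most genes described here, so counts are also given without it.

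Most replication and nucleotide supply genes were higher in embryonic mast cells, but 4 were higher in adult cells and 2 did not pass the test. Of the 56, 50 were higher in embryonic libraries at an adjusted p under 0.05 (edgeR quasi-likelihood test, Benjamini-Hochberg adjustment over all genes tested), where 31.2% of all tested genes were. In either direction 54 passed, and 63.0% of all tested genes did. The 4 higher in adult libraries were Chaf1b, Pcna, Rfc3 and Rfc2, in a direction taken by 31.7% of all tested genes. The shares of 31.2% and 31.7% are also the background for the counts by role below, and departures from them were not tested. Orc2 and Cdt1 did not pass. The median log2 fold change, embryonic minus adult, was 1.50 over the 56 genes and -0.02 over all tested genes, and the 56 ranged from -2.24 to 3.01. Of the 50, 38 were at least 2-fold higher, as were 17.2% of all tested genes, and 21 were at least 4-fold higher, as were 7.61%. Embryonic and adult libraries were free of overlap for 54 of the 56, as for 70.0% of all tested genes. Without embryonic replicate 3, 50 were higher in embryonic and 3 in adult libraries. In bulk RNA, fewer cells in S phase and less RNA per cell cannot be told apart.

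**Figure D1:**
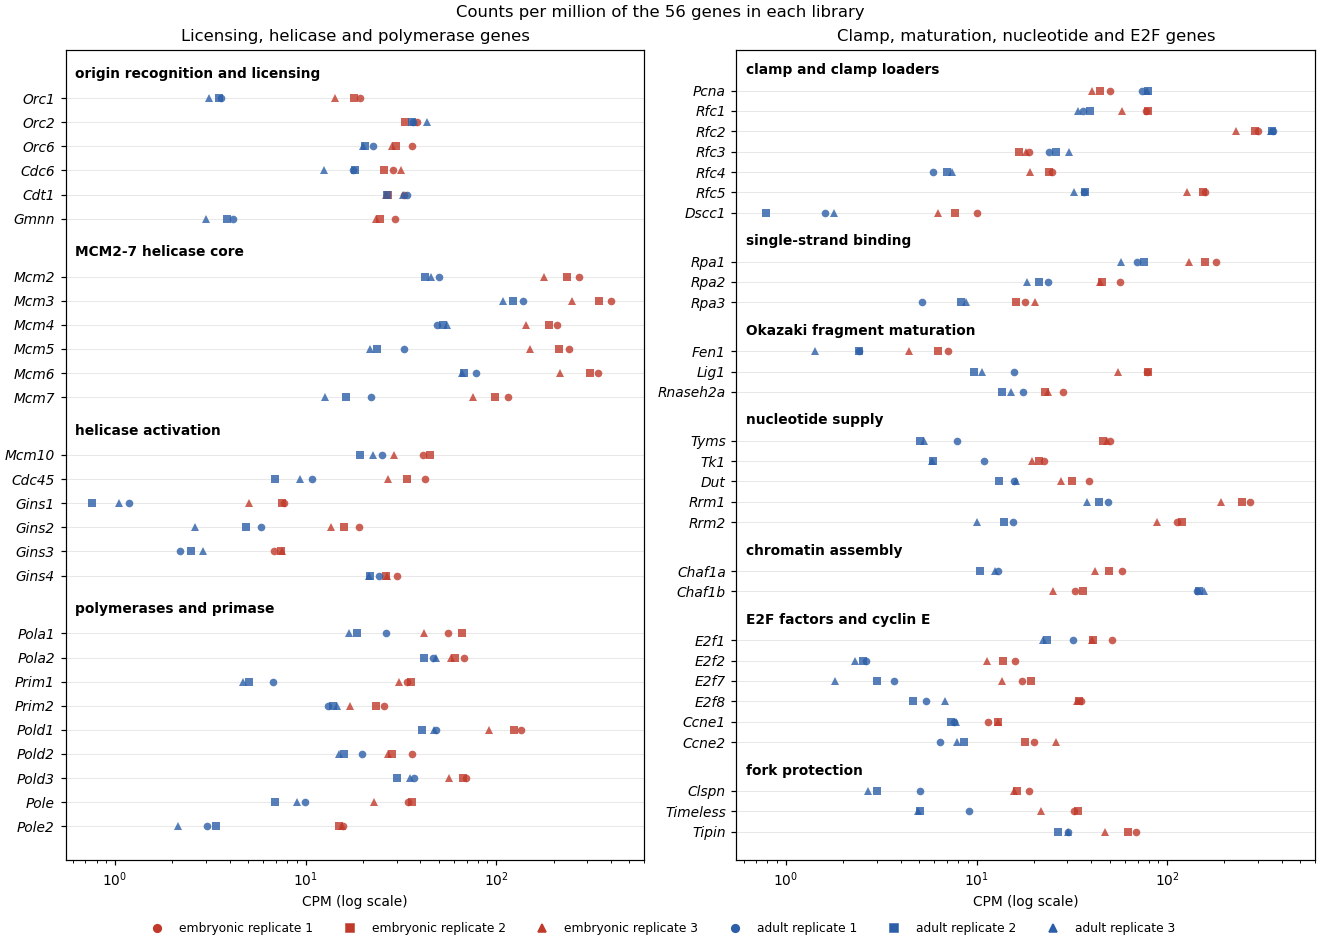
CPM (log scale) of each of the 56 genes in 6 libraries, 3 embryonic in red and 3 adult in blue, with 1 symbol shape per replicate number and genes grouped by role. Red symbols lie to the right of blue ones for 50 genes, Chaf1b shows the widest gap the other way (25.2 to 36.3 against 143 to 157 CPM), and the symbols of Orc2 and Cdt1 overlap.

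Of the 6 licensing genes, 4 were higher in embryonic libraries and 2 did not pass the test. The inhibitor geminin differed between groups, and its target Cdt1 did not pass. Gmnn encodes geminin, which binds Cdt1 and blocks a second round of licensing (ENSMUSG00000006715.11, chromosome 13, 24751845 to 24761923, GRCm38). It was at 29.6, 24.6 and 23.3 CPM in the embryonic libraries and at 4.18, 3.87 and 3.00 CPM in the adult libraries, in replicate order. The groups did not overlap, and the difference was 6.99-fold (log2 fold change 2.81 ± 0.18 SE, adjusted p = 7.8e-07). Cdt1 itself was at 32.9, 27.1 and 26.4 CPM in the embryo and 34.2, 26.7 and 32.3 CPM in the adult. These values overlapped, and the difference was not called (-0.11 ± 0.14 SE on the log2 scale, adjusted p = 0.51). The ratio of Cdt1 to Gmnn CPM was 1.11, 1.10 and 1.13 in embryonic libraries and 8.19, 6.89 and 10.8 in adult libraries.

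Origin recognition subunits did not move alike. Orc1, the large subunit with ATPase activity (chromosome 4, 108579423 to 108614833), was at 19.2, 17.9 and 14.2 CPM in the embryo and 3.60, 3.53 and 3.13 CPM in the adult, 4.99-fold higher (adjusted p = 2.7e-06). Every embryonic library lay well above every adult one. Orc2, another subunit of the same complex, was at 38.6, 33.4 and 37.0 CPM in the embryo and 36.6, 36.4 and 43.5 CPM in the adult. The groups overlapped (log2 fold change -0.10 ± 0.12 SE, adjusted p = 0.50). Of its exon bases, 29.8% are shared with Nif3l1 on the opposite strand, and reads there were not counted. Orc6 and Cdc6, which helps to load the helicase, were 1.50-fold and 1.79-fold higher in embryonic libraries.

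All 6 subunits of the MCM2-7 helicase core were higher in embryonic libraries, 2.69-fold to 7.70-fold. Mcm2 (chromosome 6, 88883474 to 88898780) was at 273, 237 and 177 CPM in the embryo and 50.3, 42.2 and 45.4 CPM in the adult, 4.98-fold higher (adjusted p = 1.8e-06). Mcm4 was at 209, 188 and 143 CPM in the embryo and 48.8, 52.8 and 55.1 CPM in the adult, 3.44-fold higher (adjusted p = 3.4e-06). The groups lay far apart for all 6 subunits, and embryonic replicate 3 was the lowest embryonic library for Mcm2 and for Mcm4. Mcm5 had the largest difference of the role, with means of 202 ± 45.8 CPM in the embryo and 26.1 ± 6.04 CPM in the adult (SD, n = 3), and Mcm3 the smallest, at 332 ± 75.8 against 123 ± 15.5 CPM. The 6 proteins form a ring with 1 copy of each, but their RNA levels per kilobase of exon were uneven. Per kilobase of exon, the highest level, of Mcm3, was 4.05 times the lowest, of Mcm7, in embryonic libraries and 8.54 times in adult libraries. These levels depend on the exon models. Other genes share 12.6% of the exon bases of Mcm7, where reads were not counted. In a later release of the gene annotation, coding transcripts hold 48.5% of the exon bases of Mcm2 and 100% of those of Mcm4. The part of the exon models in the unevenness was not tested. The summed CPM of the 6 genes was 1582, 1394 and 1012 in embryonic and 372, 325 and 309 in adult libraries.

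The 6 genes that activate the helicase were all higher in embryonic libraries, but the 4 GINS subunits differed widely. Gins1 (chromosome 2, 150905400 to 150931280) was at 7.66, 7.53 and 5.05 CPM in the embryo and 1.19, 0.761 and 1.05 CPM in the adult, 6.72-fold higher (adjusted p = 3.0e-05). Cdc45, which joins GINS and MCM in the active helicase, was at 42.3, 33.9 and 27.0 CPM in the embryo and 10.8, 6.92 and 9.31 CPM in the adult, 3.82-fold higher (adjusted p = 3.4e-05). Neither gene overlapped between groups. Gins2 was 3.63-fold and Gins3 2.86-fold higher. Gins4 had the smallest fold of the 50, at 30.3, 26.4 and 26.8 CPM in the embryo and 24.1, 21.7 and 21.6 CPM in the adult, 1.24-fold higher (adjusted p = 0.042). Its call was lost in 7 of 14 alternative settings, with adjusted p-values up to 0.12. For Gins2, 67.3% of its exon bases are shared with Gse1 on the opposite strand, so its level rests on the rest of the gene. Mcm10, a helicase cofactor, was 1.72-fold higher.

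All 9 polymerase and primase genes were higher in embryonic libraries, with subunits of 1 enzyme at unlike folds. Prim1, the catalytic subunit of primase, was at 33.9, 35.6 and 31.1 CPM in the embryo and 6.71, 5.05 and 4.71 CPM in the adult, and Prim2, its regulatory partner, was at 25.7, 23.5 and 17.2 against 13.1, 14.0 and 14.7 CPM. Neither gene overlapped between groups, and Prim2 differed 1.59-fold (adjusted p = 0.0054). Pole2, an accessory subunit of the leading strand polymerase epsilon (chromosome 12, 69201779 to 69228190), was at 15.7, 14.9 and 15.5 CPM in the embryo and 3.03, 3.37 and 2.13 CPM in the adult, 5.38-fold higher (adjusted p = 4.7e-06). Its embryonic libraries were the closest to each other of all 56 genes, with a coefficient of variation of 2.37%. Pole, the catalytic subunit, was 3.63-fold higher. In polymerase alpha, which works with primase, Pola1 was 2.64-fold and Pola2 1.36-fold higher. Of the polymerase delta genes of the lagging strand, Pold1 was 2.57-fold, Pold2 1.81-fold and Pold3 1.89-fold higher. Pold4, a delta subunit outside the 56, was also higher in embryonic libraries, with a log2 fold change of 0.52.

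**Figure D2:**
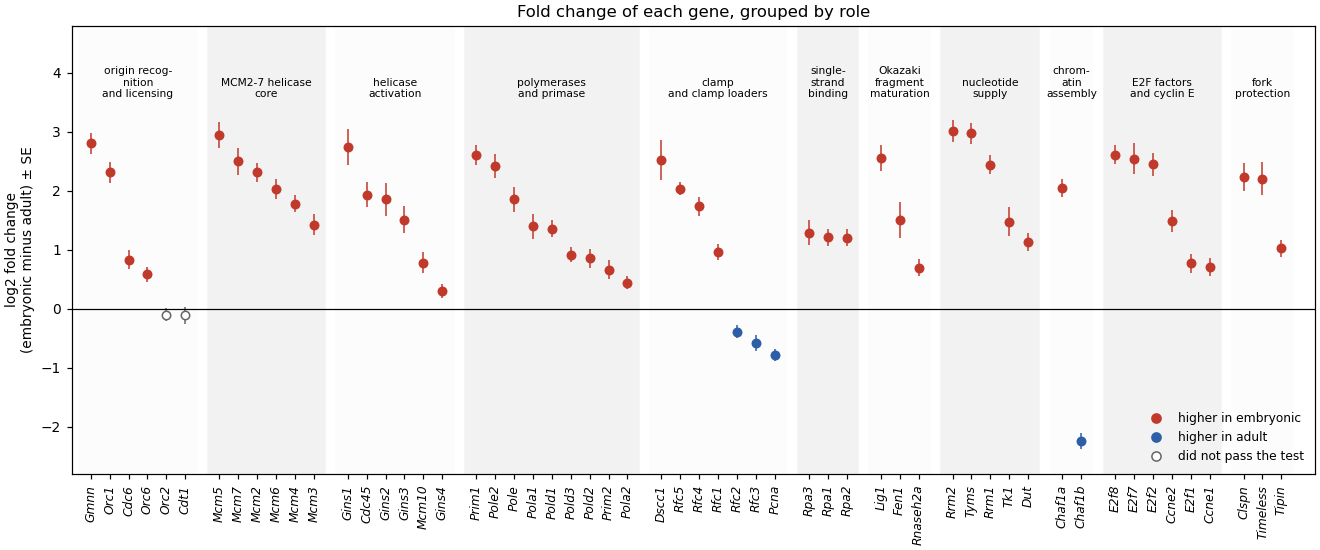
Log2 fold change (embryonic minus adult) ± SE of each of the 56 genes from the edgeR fit of 3 embryonic against 3 adult libraries, ordered within roles. Red circles passed the test above 0, blue circles below 0, and open circles did not pass: the 4 blue ones are Rfc2, Rfc3, Pcna and Chaf1b, and Rrm2 is the highest at 3.01.

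Clamp and clamp loader genes went both ways, with 4 of 7 higher in embryonic and 3 in adult libraries. Among all tested genes, 31.2% passed the test in the embryonic direction and 31.7% in the adult direction. Whether the split of these 7 genes departs from those shares was not tested. Rfc5 was at 157, 154 and 127 CPM in the embryo and 36.8, 37.0 and 32.6 CPM in the adult (log2 fold change 2.04 ± 0.12 SE, adjusted p = 3.8e-07). Rfc4, another small subunit of the same loader, was at 24.9, 23.9 and 19.1 CPM in the embryo and 5.89, 7.03 and 7.47 CPM in the adult, 3.33-fold higher (adjusted p = 1.1e-05). Both subunits were clearly apart between groups. Pcna, the clamp itself (ENSMUSG00000027342.14, chromosome 2, 132249162 to 132253314), was at 50.4, 44.6 and 40.4 CPM in the embryo and 74.2, 79.7 and 78.8 CPM in the adult (log2 fold change -0.78 ± 0.11 SE, adjusted p = 0.00015). Rfc3 was at 19.0, 16.7 and 18.3 CPM in the embryo and 24.1, 26.1 and 30.5 CPM in the adult, 1.49-fold higher in adult cells (adjusted p = 0.0032). No embryonic library reached the lowest adult value of either gene.

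Rfc2, the loader subunit with the highest level per kilobase, was at 299, 289 and 229 CPM in the embryo and 358, 356 and 351 CPM in the adult. The adult values lay within a narrow band above all embryonic ones, with the smallest coefficient of variation of any of the 56 genes (1.03%). The 1.30-fold difference passed the test (adjusted p = 0.015). It was lost without embryonic replicate 2 (adjusted p = 0.052) and without embryonic replicate 3, where the log2 fold change went from -0.38 to -0.23 (adjusted p = 0.080). Rfc2 shares 15.1% of its exon bases with Lat2 on the opposite strand, which averaged 328 CPM in the embryo and 618 CPM in the adult. Its part in the Rfc2 difference was not tested. Rfc1, the large subunit, was 1.95-fold higher in embryonic libraries. Dscc1, a subunit of the alternative loader that acts in sister chromatid cohesion, was at 10.0, 7.70 and 6.28 CPM in the embryo and 1.61, 0.784 and 1.79 CPM in the adult, 5.74-fold higher (adjusted p = 0.00013). The summed CPM of the role, with Rfc2 as its largest part, overlapped between groups, at 639, 614 and 498 in embryonic and 537, 546 and 536 in adult libraries.

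Single-strand binding and Okazaki fragment genes were higher in embryonic libraries in 6 of 6 cases. The 3 subunits of RPA, which coats unwound DNA, moved nearly alike, with log2 fold changes of 1.21 for Rpa1, 1.21 for Rpa2 and 1.29 for Rpa3. Rpa2 was at 56.7, 45.6 and 44.5 CPM in the embryo and 23.9, 21.2 and 18.4 CPM in the adult (adjusted p = 4.3e-05). Lig1, the ligase that seals Okazaki fragments (chromosome 7, 13277283 to 13311433), was at 78.8, 79.2 and 55.1 CPM in the embryo and 15.7, 9.71 and 10.6 CPM in the adult, 5.89-fold higher (adjusted p = 1.3e-05). Neither gene overlapped between groups. Fen1, the flap nuclease, was 2.84-fold higher. Gm10143 and Tmem258 overlap 84.2% of its exon bases, so its level of 5.95 ± 1.38 CPM in embryonic libraries (SD, n = 3) rests on the remaining bases. Rnaseh2a, which removes RNA primers, was 1.63-fold higher.

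The 5 nucleotide supply genes had the highest median of the 11 roles, at a log2 fold change of 2.45. Rrm1, the large subunit of ribonucleotide reductase, was at 273, 248 and 191 CPM in the embryo and 48.7, 43.8 and 38.0 CPM in the adult, 5.45-fold higher (adjusted p = 8.1e-07). Rrm2, its S phase small subunit (ENSMUSG00000020649.11, chromosome 12, 24708241 to 24714146), was at 112, 119 and 88.2 CPM in the embryo and 15.5, 13.9 and 10.1 CPM in the adult. At 8.07-fold it had the largest difference of the 56 genes (log2 fold change 3.01 ± 0.18 SE, adjusted p = 9.3e-07). Thymidylate synthase, Tyms, was at 50.3, 46.1 and 48.1 CPM in the embryo and 7.92, 5.07 and 5.31 CPM in the adult (log2 fold change 2.98 ± 0.18 SE). None of the 3 genes overlapped between groups. Tk1, the cytosolic thymidine kinase, was at 22.7, 21.3 and 19.5 CPM in the embryo and 10.9, 5.93 and 5.84 CPM in the adult, 2.79-fold higher (adjusted p = 0.00054), with adult replicate 1 well above the other 2 and the largest coefficient of variation of any of the 56 genes (38.5%). Dut, which keeps uracil out of DNA, was 2.18-fold higher.

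**Figure D3:**
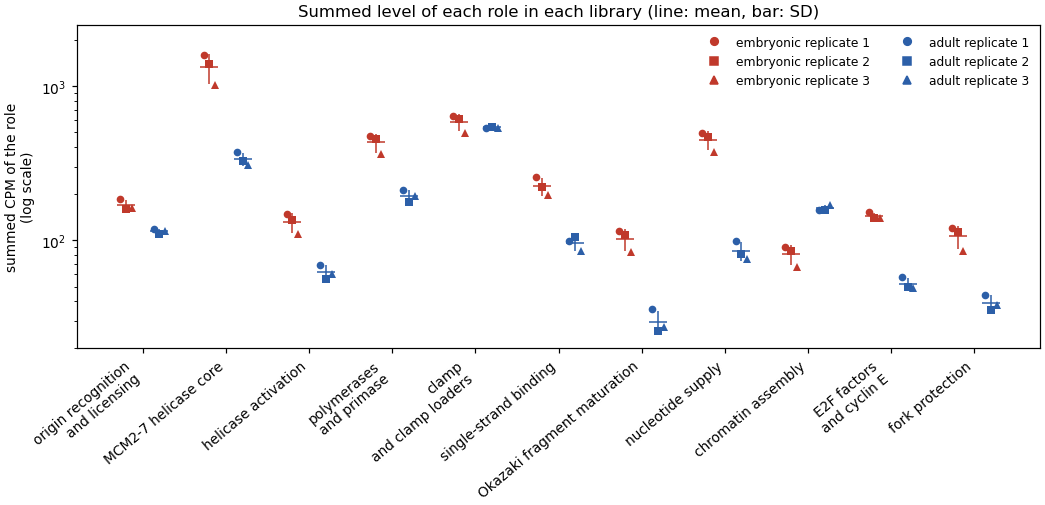
Summed CPM (log scale) of the genes of each role in 6 libraries, 3 embryonic in red and 3 adult in blue, with the mean as a horizontal and the SD as a vertical line. Red lies above blue in 9 of 11 roles, the clamp and clamp loader sums overlap, and the chromatin assembly sum is higher in adult libraries (156 to 169 against 67.0 to 90.9 CPM).

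The subunits of the chromatin assembly factor CAF-1, which places histones on newly copied DNA, went in opposite directions. Chaf1a, the large subunit, was at 57.9, 49.3 and 41.8 CPM in the embryo and 12.9, 10.4 and 12.5 CPM in the adult, 4.15-fold higher in embryonic cells (adjusted p = 2.0e-06). Chaf1b, its partner (ENSMUSG00000022945.11, chromosome 16, 93883901 to 93906115), was at 33.0, 36.3 and 25.2 CPM in the embryo and 143, 147 and 157 CPM in the adult. It was 4.73-fold higher in adult cells (log2 fold change -2.24 ± 0.14 SE, adjusted p = 6.1e-07) and the only 1 of the 4 adult-high genes with a difference of at least 2-fold. The ratio of Chaf1b to Chaf1a CPM was 0.570, 0.735 and 0.603 in embryonic libraries and 11.05, 14.0 and 12.6 in adult libraries. In a later release of the gene annotation, 47.4% of the counted exon bases of Chaf1b belong to coding transcripts. Counts on its other exon bases are included in its level. Dendritic marker sums in the adult libraries were 1955, 1801 and 708 CPM and macrophage sums 161, 186 and 79.4 CPM, and the part of such cells in the Chaf1b level was not tested.

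All 6 E2F and cyclin E genes were higher in embryonic libraries, 1.64-fold to 6.12-fold. E2f8, an atypical repressor of E2F targets (chromosome 7, 48866429 to 48881596), was at 35.5, 34.4 and 33.6 CPM in the embryo and 5.43, 4.66 and 6.84 CPM in the adult, 6.12-fold higher (adjusted p = 5.9e-07). E2f7, the other atypical repressor, was 5.84-fold higher. E2f2, an activator, was at 16.0, 13.7 and 11.4 CPM in the embryo and 2.63, 2.54 and 2.31 CPM in the adult, 5.47-fold higher (adjusted p = 3.7e-06). The groups were far apart for these 3 genes. E2f1, the activator most studied in cell cycle entry, was at means of 44.4 ± 6.31 and 25.9 ± 5.31 CPM, 1.71-fold higher (adjusted p = 0.0022). The cyclin E genes, which with Cdk2 start S phase, were 1.64-fold (Ccne1) and 2.80-fold (Ccne2) higher. The differences between these folds were not tested.

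Fork protection genes were higher in embryonic libraries in 3 of 3 cases. Clspn encodes claspin, the adaptor through which stalled forks signal to Chek1, and was at 18.7, 16.4 and 15.7 CPM in the embryo and 5.04, 3.02 and 2.71 CPM in the adult, 4.70-fold higher (adjusted p = 2.7e-05). Timeless and Tipin form 1 complex at the fork. Timeless was 4.62-fold higher, and Tipin 2.04-fold, at 68.6, 62.0 and 47.3 CPM in the embryo and 30.2, 26.9 and 30.1 CPM in the adult. The groups did not overlap for either.

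A list of 90 other genes of replication, nucleotide metabolism, RB and E2F control and the replication checkpoint gave a more mixed picture. In it 60 were higher in embryonic libraries, 15 in adult libraries and 15 did not pass, with a median log2 fold change of 0.89. The embryonic direction was taken by 31.2% of all tested genes and the adult direction by 31.7%. The 90 genes thus lay above the first share and below the second. Both shares are also the background for the smaller lists below, and differences from them were not tested. Of 28 other origin and replisome factors, 20 were higher in embryonic and 3 in adult libraries. Pclaf, a Pcna-binding protein, was at 46.9, 38.5 and 33.9 CPM in the embryo and 3.62, 2.54 and 2.31 CPM in the adult, 14.0-fold higher (adjusted p = 3.0e-07), the opposite direction to Pcna. Pole4 and Mcmbp, which unloads MCM rings, were 1.36-fold and 1.29-fold higher in adult libraries. Among 4 other histone chaperones and partners of CAF-1, Asf1b was 4.50-fold and Rbbp4, a CAF-1 subunit, 1.33-fold higher in embryonic libraries, Nasp was 1.75-fold higher in adult libraries, and Asf1a did not pass the test.

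Enzymes of DNA precursor supply outside the 56 genes went both ways. Of 16, embryonic libraries were higher for 11 and adult libraries for 5, namely Tk2, Samhd1, Cmpk2, Rrm2b and Dguok. The adult-high share is near the 31.7% of all tested genes. Tk2, the mitochondrial thymidine kinase, was at 91.5, 109 and 122 CPM in the embryo and 321, 344 and 311 CPM in the adult, 3.03-fold higher in adult cells (adjusted p = 2.3e-06). Samhd1, which degrades deoxynucleotides, was at 42.4, 40.6 and 40.2 CPM in the embryo and 74.0, 81.7 and 84.0 CPM in the adult, 1.95-fold higher in adult cells (adjusted p = 1.7e-05). The groups did not overlap for either gene. Rrm2b, the small reductase subunit used outside S phase, was at 11.1, 9.82 and 11.1 CPM in the embryo and 17.9, 26.1 and 17.7 CPM in the adult (adjusted p = 0.0010). The ratio of Rrm2 to Rrm2b CPM was 10.1, 12.1 and 7.95 in embryonic libraries and 0.865, 0.534 and 0.568 in adult libraries.

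The same comparison for thymidine kinases gave Tk1 to Tk2 ratios of 0.248, 0.196 and 0.160 in embryonic and 0.0340, 0.0172 and 0.0188 in adult libraries. For the deoxynucleoside kinases Dck, cytosolic, and Dguok, mitochondrial, the ratio was 1.40, 1.17 and 0.726 in embryonic and 0.341, 0.329 and 0.254 in adult libraries. These ratios are of CPM without correction for gene length, so their level has no meaning by itself, but length cancels when groups are compared. No ratio overlapped between groups. Counting those of Cdt1 to Gmnn, Chaf1b to Chaf1a and Rbl1 to Rb1, 6 ratios were compared. Each gave p = 0.1 in a two-sided exact permutation test, also after adjustment over the 6, the smallest value that 3 against 3 libraries can give. The ratios were picked with the fold changes known.

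**Figure D4:**
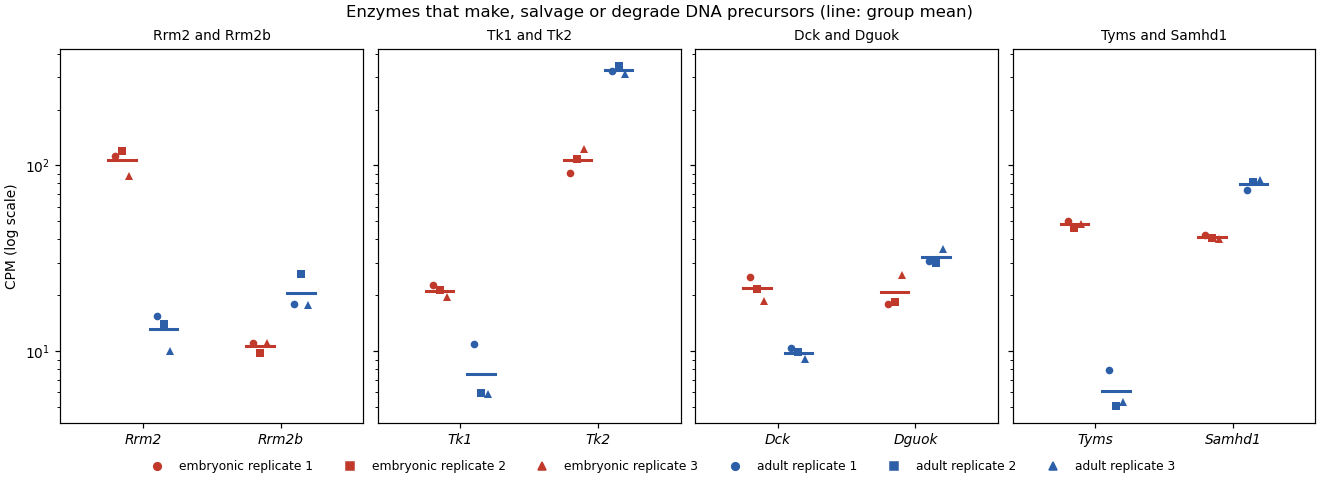
CPM (log scale) of enzymes of DNA precursor metabolism in 6 libraries, 3 embryonic in red and 3 adult in blue, with lines at the group means. Rrm2, Tk1, Dck and Tyms are higher in embryonic libraries and Rrm2b, Tk2, Dguok and Samhd1 higher in adult libraries, as in Tk2 at 91.5 to 122 against 311 to 344 CPM.

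Pathways that feed precursor synthesis were mostly higher in embryonic libraries. Of 5 pyrimidine genes, 4 were higher in embryonic libraries, with Cad, the enzyme of the first steps, at 5.43-fold and Umps at 2.71-fold, and Ctps2 did not pass. Of 12 purine genes, 9 were higher in embryonic libraries, with Adsl at 2.75-fold and Aprt, a salvage enzyme, at 3.90-fold. Hprt and Adss did not pass. Impdh2 was 2.09-fold higher in adult libraries (adjusted p = 5.8e-05), while Impdh1, which catalyses the same step of guanine nucleotide synthesis, was 1.72-fold higher in embryonic libraries. All 4 one-carbon genes were higher in embryonic libraries, with Mthfd1l at 3.59-fold and Shmt2 at 2.27-fold.

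Of 12 genes of the RB and E2F network outside the 56, 6 were higher in embryonic and 3 in adult libraries. Cdc25a, a phosphatase that activates Cdk2, was 6.63-fold and Rbl1, the RB relative p107, 2.55-fold higher in embryonic libraries. E2f5, an E2F that represses in resting cells, was 4.52-fold higher in adult libraries (adjusted p = 6.8e-06), and Rb1 1.67-fold (adjusted p = 0.00017). The ratio of Rbl1 to Rb1 was 1.41, 1.41 and 1.11 in embryonic and 0.360, 0.307 and 0.259 in adult libraries. Cdk2, the partner of cyclin E, did not pass the test, at 157 ± 7.55 and 157 ± 0.73 CPM (SD, n = 3, adjusted p = 0.99). In the replication checkpoint list of 9 genes, embryonic libraries were higher for 4 and adult libraries for 2. These counts, and the 3 adult-high genes of the RB and E2F list, lie near the shares of all tested genes (31.2% higher in embryonic and 31.7% in adult libraries). Chek1, the kinase that claspin serves, was 6.29-fold and Hus1 2.74-fold higher in embryonic libraries, whereas Wee1, which restrains cyclin-dependent kinases, was 2.22-fold and Rad1 1.44-fold higher in adult libraries, and the sensor kinase Atr did not pass (adjusted p = 0.99).

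Mitosis genes, used here as the nearest group for comparison, had larger folds than most replication genes. All 16 of a list of mitosis genes were higher in embryonic libraries, 5.81-fold to 18.9-fold, where 31.2% of all tested genes were higher. Their median was 8.61-fold, against a median of 2.82-fold over the 56 genes. Both lists were picked by name, and the 56 take in genes without a call, such as Orc2 and Cdt1. The part of this choice in the gap was not tested. Only Rrm2, Tyms, Mcm5, Gmnn, Gins1, E2f8, Prim1, Lig1 and E2f7 of the 56 lay within the range of the mitosis list. No test of the difference between the lists was made.

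The libraries of each group differed in order for most of the genes. Embryonic replicate 3 was the lowest embryonic library for 45 of the 56 (80.4%), embryonic replicate 1 was the highest for 41, and the summed CPM of the 56 was 4257, 3892 and 3084. In adult libraries replicate 1 was the highest for 35 of the 56, and the sums were 1799, 1667 and 1656. The lowest embryonic sum still lay well above the highest adult one. For the mitosis list, embryonic replicate 3 was lowest for 11 of 16 and adult replicate 1 highest for 15 of 16. The lowest adult library differed, as it was replicate 2 for 14 of 16 mitosis genes and most often replicate 3 for the 56 (28 genes). Embryonic replicate 3 also had the highest erythroid marker sum (352 CPM, against 197 and 161) and the highest keratinocyte sum (541 CPM, against 57.7 and 116). The part of these cells in the order of the libraries was not tested.

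The level of the 56 genes per kilobase of exon changed in order as well as in size. The median was 13.4 CPM per kilobase in embryonic and 4.41 in adult libraries. In embryonic libraries Mcm3 (88.4), Mcm6 (62.3), Rrm1 (59.3) and Mcm5 (58.9) were highest. In adult libraries Rfc2 (56.3), Mcm3 (32.8), Pcna (32.3) and Chaf1b (29.8) were highest, and Mcm5 stood at 18th and Rrm2 at 27th place. Chaf1b moved from 37th in embryonic to 4th in adult libraries, and Pcna from 17th to 3rd.

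The start regions of these genes were searched for the sites that E2F factors bind, since E2F genes are among those that moved. Windows from 250 bases before to 50 bases after each start were taken from RefSeq (GRCm38.p6, 1 window per gene), and 45 of the 56 genes had one. For the 6 genes with more than 1 entry, the first was used. Some of these starts lie far from the gene start of the count annotation, as in Timeless (6001 bases) and Rnaseh2a (3691 bases). The words TTTCCCGC, TTTCGCGC, TTTGCCGC and TTTGGCGC, searched on both strands with overlaps allowed, were found in 16 of 45 windows (35.6%). Of the 10998 tested genes with a window 4.04% had a word, as did 2.32% of all 27025 windows. The 56 were listed for their roles in S phase, and the part of this choice in the gap was not tested. The other replication and nucleotide genes held one in 14 of 75 windows (18.7%) and the mitosis genes in 1 of 14 (7.14%). Among the 56, the share was 4 of 5 for MCM genes, 3 of 5 for licensing genes, 4 of 7 for polymerase genes and 0 of 5 for nucleotide supply genes, which had the highest median fold. Counts depend on the entry used. A later entry of Lig1, counted here as without a word, holds one, and later entries of Mcm7 and E2f2, counted as with a word, hold none. The following stretches are those with the largest fold of each role that had a word before the start, that of Mcm6 for its 3 words, and those of the 2 adult-high genes Chaf1b and Pcna, which had none. They lie in Orc1 at chr4:108579401-108579453 (plus strand), Mcm5 at chr8:75109330-75109393 (plus), Gins3 at chr8:95633492-95633551 (plus), Pola1 at chrX:93632260-93632319 (minus), Rfc3 at chr5:151651209-151651244 (minus), E2f7 at chr10:110745215-110745274 (plus), Mcm6 at chr1:128359719-128359841 (minus), Chaf1b at chr16:93883841-93883900 (plus) and Pcna at chr2:132253181-132253240 (minus). Each is given 5′ to 3′ on the strand of its gene, with the words in capitals.
Orc1: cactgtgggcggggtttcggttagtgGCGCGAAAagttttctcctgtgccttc
Mcm5: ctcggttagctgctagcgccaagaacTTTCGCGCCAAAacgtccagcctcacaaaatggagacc
Gins3: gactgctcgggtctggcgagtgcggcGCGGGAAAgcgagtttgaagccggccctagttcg
Pola1: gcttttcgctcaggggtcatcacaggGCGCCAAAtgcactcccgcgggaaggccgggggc
Rfc3: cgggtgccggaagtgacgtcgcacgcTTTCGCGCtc
E2f7: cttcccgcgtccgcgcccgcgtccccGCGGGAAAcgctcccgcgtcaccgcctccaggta
Mcm6: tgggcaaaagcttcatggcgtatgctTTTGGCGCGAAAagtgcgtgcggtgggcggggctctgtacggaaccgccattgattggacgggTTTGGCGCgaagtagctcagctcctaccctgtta
Chaf1b: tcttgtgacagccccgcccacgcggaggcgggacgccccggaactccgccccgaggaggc
Pcna: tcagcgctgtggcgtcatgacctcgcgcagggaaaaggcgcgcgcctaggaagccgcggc

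The words in Mcm5 and the first pair in Mcm6 overlap, so that 12 bases hold a word on each strand. In Rfc3, which was higher in adult libraries, 1 of the 2 words begins 10 bases before the start. The median log2 fold change was 1.78 over the 16 genes with a word (14 higher in embryonic, 1 in adult libraries) and 1.29 over the 29 without (26 and 2). No test of this difference was made. The largest fold of all, of Rrm2, belonged to a gene without a word in the window. A looser search for TTNNCGC found 33 of 45 windows (73.3%), against 32.3% of those of all tested genes. Among the 33 were the windows of Chaf1b and Pcna and 4 of 5 windows of nucleotide supply genes, that of Rrm2 included. A match is a string of letters, and no binding was measured. The box CCAAT was in 28 of 45 windows (62.2%), against 38.6% of those of all tested genes, and in 12 of 14 of the mitosis genes (85.7%).

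**Figure D5:**
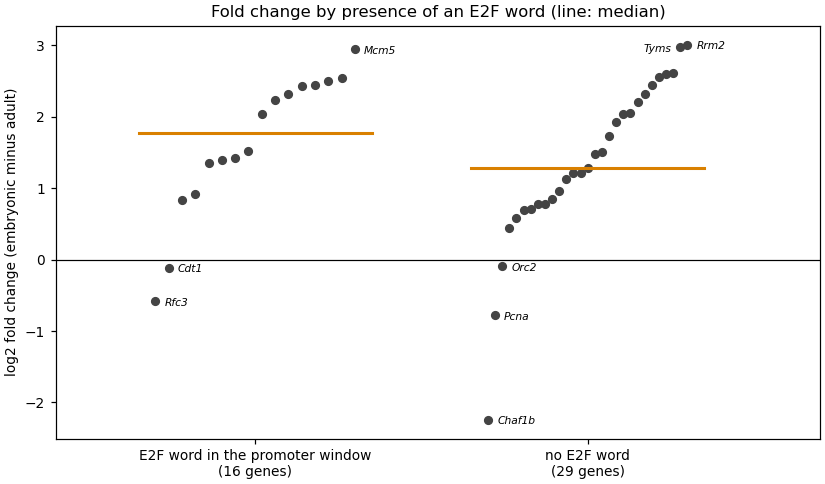
Log2 fold change (embryonic minus adult) of the 45 genes with a RefSeq start window, split by whether an E2F word lies in the window, with a line at each median. The medians are 1.78 with and 1.29 without a word, both groups span values below 0, and Rfc3 is the adult-high gene with a word.

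The genes lie on 17 chromosomes, with at most 7 on one, and several start close to an unrelated gene on the opposite strand. For 18 of the 56, another gene starts within 1000 bases on the other strand, and 14 of these 19 neighbours were tested. Of the 14 neighbours, 7 were higher in embryonic, 0 in adult libraries and 7 did not pass. The background shares over all tested genes are 31.2% for the embryonic direction and 31.7% for the adult direction. Whether the 14 neighbours depart from these shares was not tested. The median log2 fold change of the neighbours was 0.44, against 1.65 for the replication genes they face. Prkdc, a DNA repair kinase 466 bases from Mcm4, had a log2 fold change of 0.61 where Mcm4 had 1.78. Prpf38a, a splicing factor 87 bases from Orc1, was not called (log2 fold change -0.13), where Orc1 had 2.32. Prdx2, a peroxidase facing Rnaseh2a, had the larger difference of its pair, at 1.51 against 0.70.

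Exon models limit some of these levels. Of the 56 genes, 19 share exon bases with another gene and 10 share over 10%, and reads there were not counted for either gene. Besides Fen1, Gins2, Orc2 and Rfc2, the largest shares were 18.7% in Chaf1a, with Ubxn6, and 17.4% in Ccne2, with Ints8. Counting ignored strand, so reads from antisense transcripts within the remaining exons cannot be told from those of the gene. In a later release of the gene annotation, a median of 86.3% of the counted exon bases of a gene lay in coding transcripts. In 7 genes the share was under 50%: Tk1, Prim2, Dscc1, Rfc3, Prim1, Chaf1b and Mcm2. Counted exons that are absent from the later release lower these shares.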

How the data were processed

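The deposited table holds gene-level read counts of 3 embryonic and 3 adult libraries made with SMART-Seq v4 cDNA and Nextera XT. Counting was by featureCounts 1.5.0-p1 over GENCODE M9 exons without strand (setting 0), per the file headers, leaving out reads with several alignments or several genes and reads marked as duplicates. Alignment was by STAR to GRCm38 and edgeR was used, per the submitters' processing notes, with versions not given in the sources used here. Reads carry no molecular identifiers, and 3 counts correspond to 0.0603 to 0.0849 CPM.

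From these counts, edgeR 4.0.16 in R 4.3.3 (TMM, filterByExpr at its minimum of 10 counts, robust glmQLFit, glmQLFTest, Benjamini-Hochberg over 15111 genes, threshold 0.05) tested embryonic against adult libraries, after a check on simulated data. Standard errors (SE) are log2 fold changes over the root of their F statistics. The common biological coefficient of variation was 22.5%. Libraries of a group differed beyond counting noise (chi-square per degree of freedom 37.8 to 99.2). Exon lengths are those of the table, and 0 columns of other samples were present. Shares of exon bases in coding transcripts compare the counted exons with a later GENCODE release on the same assembly. Alternatives were RLE and upper quartile scaling, 2 other count filters, DESeq2 1.42.0, limma-voom (limma 3.58.1), a replicate number block, edgeR without robust estimation, each library left out, and stricter thresholds. The 56 genes, the other lists, the ratios and the promoter words were chosen with earlier results of these data known. Values per library are given in each role for the 2 smallest adjusted p-values (1 in roles of up to 3 genes), for the smallest in the less frequent direction and for genes that did not pass, and for Gins4, Prim2, Rfc2, Rfc3, Dscc1, Tk1, Rrm2, Tipin and Chaf1a, chosen after their values were seen. From the other lists, the 2 smallest adjusted p-values in each direction are named, and further genes were chosen after their values were seen.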

Additional observations from a re-analysis of the deposited data

How the results depend on the processing

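Of the 56 genes, 53 kept their direction and their side of the threshold in all 14 alternative settings. Gins4 lost its call in 7 settings and Rfc2 without embryonic replicate 2 or 3. Orc2, which had no call, had a log2 fold change of -0.15 to 0.012 with each library left out, above 0 only without embryonic replicate 2 (adjusted p = 0.95). The number of the 56 higher in embryonic libraries was 49 or 50 across fits and with each library left out, and the number higher in adult libraries was 3 or 4. With a difference of at least 2-fold also required, 1 of the 56 was higher in adult libraries, as were 5 of the 90 other genes, and over all tested genes embryonic libraries were higher for 2601 and adult libraries for 3143. No fold of the 56 moved by more than 1.28 times when a library was left out. With the replicate number as a block, 49 of the 56 were higher in embryonic and 4 in adult libraries, and Gins4 lost its call (adjusted p = 0.051). Deviations from the group means had correlations of -0.12, -0.08 and -0.13 between libraries with the same number. Between libraries with unlike numbers they ran from -0.0022 to 0.10. With 3 libraries a group, such correlations cannot settle whether libraries with the same number shared a batch or litter. The looser E2F letters were found in 33 of 45 windows. At 3 libraries a group, differences as small as those of Orc2 and Cdt1 were not detectable, which does not show that their levels are equal.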
